A study of Mus musculus with 8 samples.

Results

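In 154 of the 20144 mouse genes measured, the deposited signal was at least 4-fold higher with an Lmo2 vector than with an empty vector. Both vectors were put into an Ebf1-deficient pro-B line without T-lineage potential. In these genes the parental line with that potential was not 2-fold above the parental line without it. Of the 154 genes, 114 also lay at least 4-fold above the untransduced line, and 61 were not well above background on either empty-vector array. The 154 genes were chosen by their values on the same arrays described here. The rule took the deposited log2 values, 1 probe per gene (the one with the highest mean over the 8 arrays), and kept a gene where the LMO2 mean lay at least 2 above the Mock mean, where the pro-B(+) mean lay less than 1 above the pro-B(−) mean, and where the probe was well above background on both LMO2 arrays. Genes of the MHC, Hox, collagen, chemokine, chemokine receptor, integrin, Ifi, granzyme and CD3 families, and Il2ra, were left out by symbol, which removed 5 genes that met the thresholds. Every array enters the rule, so the levels of the 154 genes are given as a description and carry no test.

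All cells were pro-B lines from Ebf1-deficient fetal liver progenitors, which lack a factor needed for B-cell specification and grow with IL-7, SCF and Flt3 ligand on stromal cells. The 4 groups, with 2 arrays each, were pro-B(+), a line with T-lineage potential set up on OP9 stroma, pro-B(−), a line without it set up on TD7 thymic stroma, and pro-B(−) cells transduced with an empty lentiviral vector (Mock) or with the same vector encoding Lmo2 (LMO2). The Mock vector also carries the rat CD2 marker that tags the transduced cells, so Mock and LMO2 cells share vector and marker. Each parental group is 1 line, and the stroma of the transductants before RNA isolation is not given in the sources used here. The study gives the parental comparison as biological replicates. For the Mock and LMO2 arrays the sources used here do not say whether they were separate cultures. A p-value for them measures only the spread within groups, pooled over all 4 groups, which for these arrays may be technical.

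LMO2 is a LIM-domain adaptor with no DNA binding of its own. It joins LDB1, bHLH factors such as TAL1 and LYL1, E proteins and GATA factors into complexes that bind E-box and GATA motifs, and it is known for its part in blood stem cells and in T-cell leukaemia. The genes described here are placed by what they encode, first those of lymphocytes and of interferon responses, then tissue genes that blood cells do not usually use.

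The Lmo2 probe read 0.99 and 0.92 on the LMO2 arrays, 0.35 and 0.35 on the Mock arrays, 0.62 and 0.63 on the pro-B(−) arrays and 2.08 and 2.10 on the pro-B(+) arrays. Lmo2 was thus 1.52-fold higher in LMO2 than in Mock cells (limma, adjusted p = 3.8e-05), and the parental lines differed 2.76-fold with pro-B(+) the higher (adjusted p = 2e-06). Whether this probe lies in the part of Lmo2 that the vector encodes is not given in the sources used here. The Ebf1 probe was well above background in every group, with means from 1.12 to 1.51, and whether it lies in the deleted part of the gene is likewise not given. The pan-leukocyte genes Ptprc, Coro1a and Laptm5 and the progenitor genes Il7r and Flt3 were well above background on all 8 arrays. On each array 56.5% to 61.2% of the probes were well above background. Both parental lines shared a slide, and the transductants shared another, so the differences of the rule lie within a slide, while for Mock against pro-B(−), and for LMO2 against pro-B(+) or pro-B(−), slide and group cannot be told apart.

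Over the chosen genes the LMO2 minus Mock difference had a median of 2.64 (log2), which is 6.25-fold, and ran from 2.01 to 6.81. It was under 2.5 in 69 genes, at least 3 in 56 and at least 4 in 20. Of all 12912 genes tested between LMO2 and Mock cells, 4017 were called higher (31.1%) and 4881 lower (37.8%) with limma at an adjusted p under 0.05. Over all probes the split was 6533 higher and 8372 lower, and 4054 and 12446 when the arrays were centred on their medians, which moves the median over all probes tested from -0.04 to -0.25. Of the 153 chosen genes tested 150 were called higher, which follows from the way they were chosen. With normexp background correction, an alternative that shrinks dim signals, the median difference over these 153 genes was 1.39. The pro-B(+) minus pro-B(−) difference had a median of 0.23, was above 0 in 114 of the 154 genes, and was at or under -1 in 8. Another 254 genes met the LMO2 minus Mock threshold and the background flag but had a parental difference of 1 or more.

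**Figure D1:**
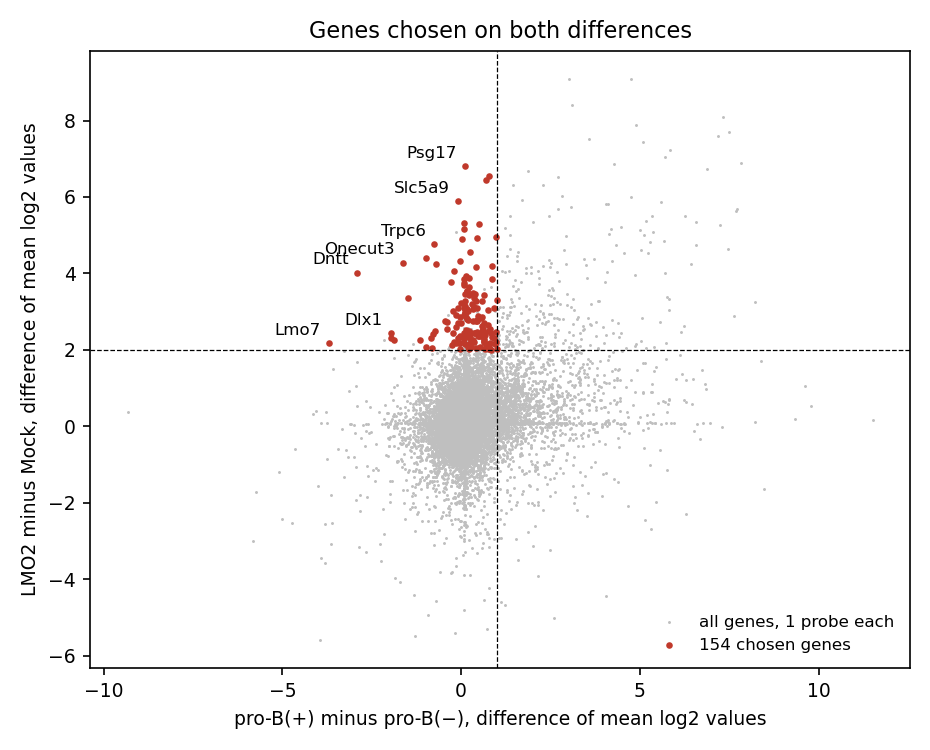
Difference between LMO2 and Mock cells against the difference between pro-B(+) and pro-B(−) cells, both as differences of mean log2 values over 2 arrays, for 20144 genes with 1 probe each (grey) and the 154 chosen genes (red). Dashed lines mark the thresholds of 2 and 1, and most red points lie at parental differences between -1 and 1, with Dntt, Lmo7, Onecut3 and Dlx1 further to the left.

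The thresholds fell in a dense range of values. Just inside the threshold of 2 lay Olfr971 (2.01), Samd9l (2.02), C2 (2.02), Armc2 (2.02) and Sik1 (2.02). Just outside it lay Phf11c (1.98), Slc5a5 (1.97), Srr (1.97), Psg28 (1.97) and Rnft2 (1.95). On the parental threshold of 1, Rtn4rl1 (0.99), Sik1 (0.99) and Nhlrc1 (0.96) were just inside, and Pik3cb (1.004), Mcpt4 (1.01) and Ctr9 (1.03) just outside. Samd9l and Phf11c, 1 on each side of the line, differ by 0.04 in the deciding value.

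The size of a difference is better known where the Mock arrays saw it, but for dim genes it still depended on background handling. Among genes seen on both Mock arrays, Fam71b went from 4.93 to 2.94 with normexp, and the bright Ly6d from 2.77 to 2.74. 79 of the 154 genes were well above background on both Mock arrays, 14 on 1 and 61 on neither, and 44 were well above background on the LMO2 arrays and on no other array. For the 61 genes seen on neither Mock array the fold is given as a bound, written as at least. It is the LMO2 mean over a Mock mean. Each Mock value was the higher of the dim probe's own value and the array's lowest value well above background. These bounds ran from 1.37-fold to 61.3-fold with a median of 3.38, and 25 of the 61 reached 4-fold. They hold for the deposited values alone and are not strict, since a probe above that lowest value can lack the flag. With normexp the log2 difference was 3.38 for Psg17, whose bound was 61.3-fold, and 0.60 for Gimap3, whose bound was 3.64-fold. The LMO2 arrays differed by under 0.3 in 128 of the 154 genes.

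A few genes rest on 1 LMO2 array. The 2 LMO2 arrays were more than 1 apart in 9 genes, among them Etfrf1, Artn, Olfr469 and Cst13. Etfrf1, a mitochondrial electron transfer regulator, read 6.49 and -0.94 on the LMO2 arrays, -1.03 and -0.97 on the Mock arrays, -0.83 and -1.03 on the pro-B(−) arrays and -1.25 and -1.16 on the pro-B(+) arrays. Only 1 of its 8 values stands out, and without that array the LMO2 minus Mock difference was 0.06, and the scanner software marked an LMO2 spot of this probe as an outlier, so it was not in the limma fit. Without the array on which each read high, the difference was 0.80 for Artn, a neurotrophic factor of the GDNF family, and 0.70 for the odorant receptor Olfr469. In all, 17 of the 154 genes fell under the threshold of 2 when 1 of the LMO2 arrays was left out. The rule itself gave 271 genes without LMO2 replicate 1 and 233 without replicate 2, of which 145 and 144 were among the 154. In those repeats the LMO2 mean rested on 1 array and the background flag on the same array.

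**Figure D2:**
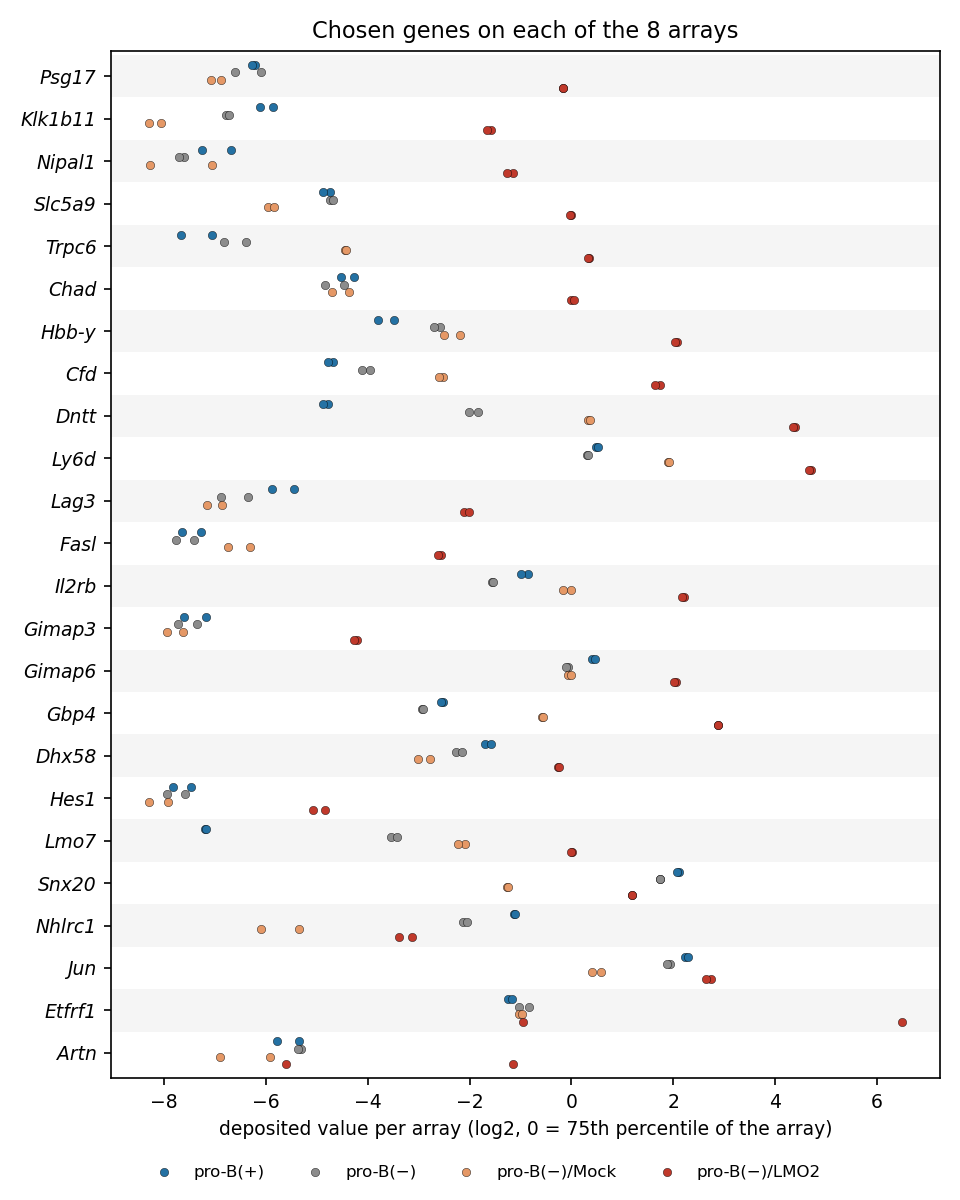
Deposited log2 value (0 is the 75th percentile of each array) of 24 chosen genes on every array, with blue points for pro-B(+), grey for pro-B(−), orange for Mock and red for LMO2. The LMO2 points of Psg17, Slc5a9, Dntt and Gbp4 nearly coincide and lie right of all others, Snx20, Nhlrc1 and Jun have Mock as their low group, and the LMO2 points of Etfrf1 and Artn lie far apart.

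Genes of lymphocyte development and of lymphocyte or related surface receptors made up 13 of the chosen genes. In all 13 the LMO2 mean also lay at least 2 above the pro-B(−) mean. Dntt, which encodes the terminal transferase that adds untemplated bases to antigen receptor joins, read 4.38 and 4.35 on the LMO2 arrays, 0.33 and 0.37 on the Mock arrays, -2.01 and -1.83 on the pro-B(−) arrays and -4.79 and -4.88 on the pro-B(+) arrays. The groups did not overlap, and they were ordered LMO2, Mock, pro-B(−), pro-B(+) from high to low. Its means were 4.37 with LMO2 (SD 0.0242) and 0.35 with Mock (SD 0.0282, n = 2 each), a 16.2-fold difference. Rag1, which encodes the recombinase that works at the same joins and is not a chosen gene, went the other way, with means of -4.81 in LMO2 and -2.03 in Mock cells, a difference of -2.78 (limma, adjusted p = 2.5e-05). Ly6d, a surface marker of lymphoid progenitors biased to the B lineage, read 4.70 and 4.67 on the LMO2 arrays, 1.90 and 1.92 on the Mock arrays, 0.30 and 0.32 on the pro-B(−) arrays and 0.48 and 0.53 on the pro-B(+) arrays. It was 6.82-fold higher in LMO2 than in Mock cells, and Mock in turn lay above both parental lines.

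The promoter region of Dntt is shown because this gene combines one of the lowest parental differences (-2.92) with a signal well above background on every array. The 250 bases before its start (chr19:41029025-41029274, plus strand, RefSeq, GRCm38.p6) are printed 5′ to 3′ with each E-box motif (CANNTG, searched on both strands, which read alike) in capitals.
Dntt: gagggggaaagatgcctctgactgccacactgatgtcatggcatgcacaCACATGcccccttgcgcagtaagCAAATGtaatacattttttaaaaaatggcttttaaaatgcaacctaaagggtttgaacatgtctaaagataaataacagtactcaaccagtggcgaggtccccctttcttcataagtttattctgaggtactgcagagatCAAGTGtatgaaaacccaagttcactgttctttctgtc
The region holds 3 E-box matches, and 61.9% of all 15982 promoter regions of this length hold at least 1.

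Il2rb, the beta chain of the IL-2 and IL-15 receptors, read 2.21 and 2.17 on the LMO2 arrays against -0.18 and -0.01 on the Mock arrays, a 4.86-fold difference, with -1.56 and -1.54 in pro-B(−) and -0.85 and -0.98 in pro-B(+) cells. Lag3, an inhibitory receptor that binds MHC class II, was not well above background in any group but LMO2, where it read -2.10 and -2.01, at least 16.5-fold above Mock. Fasl, the death ligand of cytotoxic cells, showed the same pattern with -2.56 and -2.62 on the LMO2 arrays (at least 11.4-fold), as did Gpr15, a receptor that guides T cells to the gut, with -2.29 and -2.26 (at least 14.2-fold). These bounds hold for the deposited values alone. With normexp the log2 differences were 1.76 for Lag3, 1.27 for Fasl and 1.59 for Gpr15. Pou2af1, the OCT coactivator of B cells, read -4.05 and -4.11 on the LMO2 arrays against -6.78 and -6.89 on the Mock arrays (at least 4.07-fold), and Il9r, the IL-9 receptor, -5.48 and -5.23 on the LMO2 arrays against -8.41 and -8.04 on the Mock arrays (at least 1.68-fold). For Il9r the bound is small because the LMO2 values lie close to the lowest value that the scanner separates from background.

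GIMAP genes encode GTPases of lymphocytes and lie together on chromosome 6. Gimap3 was well above background on the LMO2 arrays alone (-4.20 and -4.28, at least 3.64-fold above Mock), and so was Gimap7 (-3.71 and -3.84, at least 5.03-fold). Gimap6 was measured in every group and read 2.05 and 2.02 on the LMO2 arrays against -0.06 and -0.02 on the Mock arrays, a 4.21-fold difference, with -0.07 and -0.12 in pro-B(−) cells. Over all genes tested, 31.1% were called higher in LMO2 than in Mock cells, and all 8 GIMAP genes measured were (limma, adjusted p under 0.05). The family was picked after its values were seen, and 3 of the 8 were chosen on this same difference. Of the 5 that were not chosen, Gimap8 had the largest difference (4.06) but also a parental difference of 2.14, Gimap5 differed by 1.84, and Gimap1, Gimap4 and Gimap9 by 0.39 to 0.65.

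Interferon-inducible genes were a second group, with 8 chosen genes that were all well above background on both Mock arrays. Gbp4, a guanylate-binding protein induced by interferon-γ, read 2.89 and 2.87 on the LMO2 arrays, -0.59 and -0.56 on the Mock arrays, -2.94 and -2.91 on the pro-B(−) arrays and -2.53 and -2.55 on the pro-B(+) arrays. Its LMO2 mean was 11-fold the Mock mean (SD 0.00966 and 0.0174, n = 2 each), and Mock was already 2.35 above pro-B(−). Its neighbours Gbp8 and Gbp9, with no other measured gene between them on chromosome 5, differed by 2.06 and 2.14 between LMO2 and Mock cells. Dhx58, an RNA sensor of the RIG-I family, had a mean of -0.25 with LMO2 (SD 0.00188) and -2.89 with Mock (SD 0.158, n = 2 each), a 6.22-fold difference, and Xaf1, a proapoptotic interferon target, read -0.20 and -0.32 on the LMO2 arrays against -2.55 and -2.67 on the Mock arrays (5.09-fold). Samd9l, an antiviral and growth-restraining gene, read 2.18 and 2.24 on the LMO2 arrays against 0.20 and 0.18 on the Mock arrays (4.05-fold). For Dhx58 and Xaf1 the Mock values lay below the pro-B(−) values, and the LMO2 means were 1.96 and 1.88 above pro-B(−).

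A list of 47 interferon-response genes was drawn from general knowledge, with earlier results of these data known. Of these, 42 were bright enough to test between LMO2 and Mock cells. Limma called 40 higher and 0 lower (adjusted p under 0.05), where 31.1% and 37.8% of all genes tested were. The median difference was -0.03 over all genes tested and 1.67 over these 42. Leaving aside the 4 chosen genes among them, 36 of 38 were called higher, for example Irf7 (2.47), a regulator of interferon production, Isg15 (2.82), a ubiquitin-like modifier, and Oas2 (4.04), which makes the 2-5A messenger. Between Mock and pro-B(−) cells, which lie on different slides, the list went the other way. There 8 of 41 genes were called higher and 21 lower (median -0.25), where 30.9% and 29.9% of all genes tested were called. Between the parental lines 26 of 41 were higher in pro-B(+) and 5 lower, where the shares were 25.7% and 27.1%. Such genes were not chosen where pro-B(+) cells had them high too, as for Oas2, which read 0.99 there and -3.08 in pro-B(−) cells on average. All 9 guanylate-binding protein genes measured were called higher in LMO2 than in Mock cells, from 0.93 for Gbp7 to 4.39 for Gbp2. They include 3 chosen genes, and the 6 others were all called higher. The family was picked after its values were seen, and probes of these related genes may share signal.

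Gm12250 encodes IRGB10, an interferon-inducible GTPase, and read -2.12 and -2.06 on the LMO2 arrays against -5.18 and -5.17 on the Mock arrays (8.48-fold). Its promoter region is shown because it holds 2 copies of the interferon-response type motif GAAANNGAA, searched on both strands, whereas the regions of Xaf1 and Samd9l hold none. The 250 bases before its start (chr11:58183593-58183842, plus strand, RefSeq, GRCm38.p6) are printed with the matches, both on the opposite strand, in capitals.
Gm12250: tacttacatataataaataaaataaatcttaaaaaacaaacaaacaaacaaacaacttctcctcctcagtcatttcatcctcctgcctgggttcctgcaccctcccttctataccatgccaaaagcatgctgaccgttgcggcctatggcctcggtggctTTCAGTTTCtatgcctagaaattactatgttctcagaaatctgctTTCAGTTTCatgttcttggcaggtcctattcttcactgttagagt
Over the chosen genes with a promoter entry, 8 of 116 regions hold this motif (6.9%), and over all genes 1122 of 15982 do (7.02%).

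**Figure D3:**
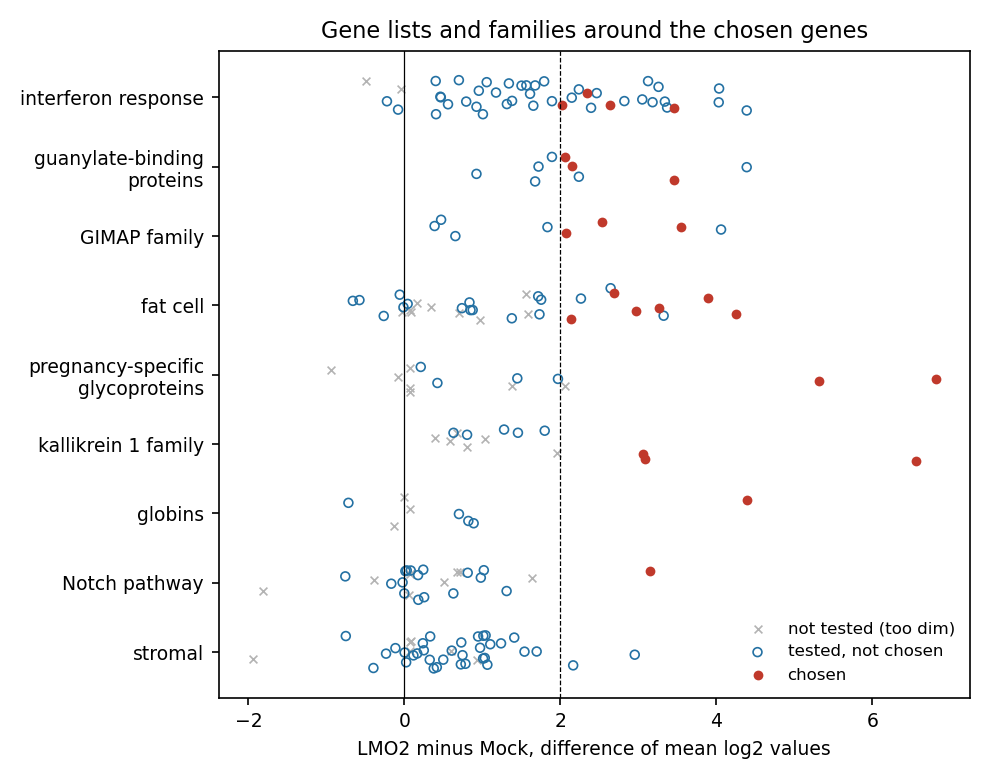
Difference between LMO2 and Mock cells (difference of mean log2 values, 2 arrays per group) for each gene of 9 lists and families, with red points for chosen genes, open blue circles for other genes bright enough to test and grey crosses for genes too dim to test. The dashed line marks the threshold of 2, and all guanylate-binding protein and GIMAP genes lie right of 0 while the Notch and stromal lists straddle 0.

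Psg17 is a pregnancy-specific glycoprotein made by the placenta, and its bound was the highest among the chosen genes seen on neither Mock array. It read -0.17 and -0.16 on the LMO2 arrays, -7.07 and -6.88 on the Mock arrays, -6.60 and -6.09 on the pro-B(−) arrays and -6.22 and -6.27 on the pro-B(+) arrays. It was well above background on the LMO2 arrays alone, and lay at least 61.3-fold above Mock. Psg18, of the same family, read -3.01 and -2.90 on the LMO2 arrays and -8.53 and -8.03 on the Mock arrays (at least 8.86-fold). Of 13 family members measured, 6 were bright enough to test. Psg17 and Psg18, chosen on this difference, were called higher (limma, adjusted p under 0.05). Of the 4 others tested, 2 were called higher and none lower, where 31.1% and 37.8% of all genes tested were. Psg28 (adjusted p = 0.066) and Psg29 (adjusted p = 0.094) did not pass the test, and the family was picked after its values were seen. The family shares long stretches of sequence, so signal at 1 probe can come from a relative.

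The promoter regions of Psg17 and Psg18 are shown side by side because both genes were seen with LMO2 alone. They are the 250 bases before each start (chr7:18821592-18821841, minus strand, and chr7:18355008-18355257, minus strand, RefSeq, GRCm38.p6), with E-box matches in capitals.
Psg17: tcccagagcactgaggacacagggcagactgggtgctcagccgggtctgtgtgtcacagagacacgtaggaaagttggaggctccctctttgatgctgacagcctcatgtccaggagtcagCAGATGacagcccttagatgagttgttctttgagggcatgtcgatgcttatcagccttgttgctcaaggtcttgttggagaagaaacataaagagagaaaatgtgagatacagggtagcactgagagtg
Psg18: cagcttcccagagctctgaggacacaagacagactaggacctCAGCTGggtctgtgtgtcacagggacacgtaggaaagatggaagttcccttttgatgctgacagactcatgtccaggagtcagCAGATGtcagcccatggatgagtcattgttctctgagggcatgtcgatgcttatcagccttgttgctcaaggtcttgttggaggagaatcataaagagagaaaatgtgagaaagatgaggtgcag
Aligned end to end, 219 of 258 columns are identical (84.9%), and both hold the E-box CAGATG.

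Kallikrein 1 genes encode secreted serine proteases of the salivary gland and other epithelia. Klk1b11 read -1.57 and -1.65 on the LMO2 arrays, -8.29 and -8.06 on the Mock arrays, -6.79 and -6.73 on the pro-B(−) arrays and -6.12 and -5.86 on the pro-B(+) arrays, at least 22.5-fold higher with LMO2 than with Mock. Klk1b8 read -2.78 and -2.79 on the LMO2 arrays against -5.54 and -6.19 on the Mock arrays, with 1 Mock array well above background, and Klk1b4 -3.79 and -3.32 on the LMO2 arrays against -6.68 and -6.55 on the Mock arrays (at least 5.86-fold). Over all genes tested 31.1% were called higher, and the kallikrein 1 family was picked after its values were seen. Of the other 11 family members measured, 5 were bright enough to test and 4 were called higher, from Klk1b3 (0.80) to Klk1b24 (1.80), and none lower. These genes are near copies of each other too, and their probes cannot be taken as separate evidence. Ceacam16, a relative of the pregnancy-specific glycoproteins that is known from the inner ear, was measured in every group and read 1.95 and 1.90 on the LMO2 arrays against -1.53 and -1.57 on the Mock arrays (11.1-fold), with -2.09 and -2.19 in pro-B(−) cells.

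Hbb-y, the embryonic beta-like globin of primitive red cells, read 2.08 and 2.04 on the LMO2 arrays, -2.50 and -2.18 on the Mock arrays, -2.59 and -2.69 on the pro-B(−) arrays and -3.80 and -3.48 on the pro-B(+) arrays. LMO2 exceeded Mock 21.1-fold (SD 0.0297 and 0.227, n = 2 each), and a second Hbb-y probe differed by 4.51. Among the other globin genes, Hbb-bt differed by 0.70, the near-identical Hba-a1 and Hba-a2 by 0.82 and 0.89, and Hbb-bh1, also embryonic, fell by 0.72 on the log2 scale. The red-cell gene Gata1 was not well above background on any Mock or LMO2 array. Of 25 erythroid and megakaryocyte genes tested 16 were called higher and 7 lower, where 31.1% and 37.8% of all genes tested were. The promoter region of Hbb-y is shown with its match to the GATA motif (GATAA, either strand) in capitals, since GATA factors are LMO2 partners (chr7:103853208-103853457, minus strand, RefSeq, GRCm38.p6).
Hbb-y: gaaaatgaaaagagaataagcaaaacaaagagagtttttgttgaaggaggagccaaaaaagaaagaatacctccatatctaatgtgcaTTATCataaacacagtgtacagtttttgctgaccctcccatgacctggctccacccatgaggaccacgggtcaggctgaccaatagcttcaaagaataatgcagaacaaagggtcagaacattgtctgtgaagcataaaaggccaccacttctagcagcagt
The match reads on the opposite strand, and 20% of all promoter regions hold at least 1.

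Fat-cell genes formed a further group of 6. Cfd, adipsin, read 1.75 and 1.65 on the LMO2 arrays, -2.52 and -2.59 on the Mock arrays, -3.96 and -4.11 on the pro-B(−) arrays and -4.68 and -4.78 on the pro-B(+) arrays, a 19.1-fold difference between LMO2 and Mock cells. Adipoq, adiponectin, was measured in every group and read -0.14 and -0.14 on the LMO2 arrays against -2.81 and -2.85 on the Mock arrays (6.46-fold). Plin1, the coat protein of the lipid droplet, was well above background in both parental lines but on neither Mock array. It read -2.63 and -2.59 with LMO2 (at least 11.3-fold). Adig, adipogenin, read -2.14 and -2.07 on the LMO2 arrays against -5.10 and -5.65 on the Mock arrays with 1 Mock array well above background. A second Adig probe, well above background on both LMO2 arrays, differed by 1.14. Retn, resistin, differed by 2.13 with 1 Mock array well above background, and Arxes1, seen on neither Mock array, lay at least 1.84-fold above Mock. Over all genes tested 31.1% were called higher and 37.8% lower. A fat-cell list was made after these values were seen. It held 17 other genes bright enough to test, of which 11 were called higher and 2 lower. Among them Fabp4, a fatty acid carrier, differed by 2.26 and Pparg, the master regulator of fat cells, by 0.88, but Lep, leptin, Cidea and Slc2a4, the insulin-responsive glucose transporter, were not well above background in any group.

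The lines grow on stromal cells, so stromal genes are given beside the fat-cell genes. Of 40 stromal genes, 34 were tested between LMO2 and Mock cells, and 24 were called higher and 3 lower. The shares over all genes tested were 31.1% and 37.8%. Between Mock and pro-B(−) cells, on different slides, 28 of 32 were called higher and 2 lower, where the shares were 30.9% and 29.9%. The summed signal of the list (log2) was 7.30 to 7.34 on the LMO2 arrays, 7.30 to 7.32 on the Mock arrays, 6.84 to 6.92 on the pro-B(−) arrays and 7.15 on both pro-B(+) arrays, so LMO2 and Mock overlapped on the whole list. The summed signal of 7 defining stromal markers did not overlap, and was 2.61 to 2.72 on the LMO2 arrays, 1.85 to 1.89 on the Mock arrays, 0.87 to 0.91 on the pro-B(−) arrays and 2.20 to 2.23 on the pro-B(+) arrays. Of these markers, Dcn and Lum were not well above background on any array, Sparc differed by 0.78 and Pdgfrb by 1.04 between LMO2 and Mock cells, and Postn fell by 0.75 on the log2 scale. The part of stromal RNA in the fat-cell values was not tested. In such bulk samples, fewer cells of a type and less RNA per cell cannot be told apart.

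Transcription factors and cofactors made up 13 of the chosen genes. Hes1, a repressor that Notch signalling induces, was well above background on the LMO2 arrays alone, where it read -4.84 and -5.06 against -8.29 and -7.92 with Mock (at least 2.22-fold). Of 25 Notch pathway genes, 17 were tested, 9 were called higher and 1 lower, with a median difference of 0.18 that turned to -0.03 when the arrays were centred on their medians. Leaving Hes1 aside, 8 of 16 were called higher and 1 lower, where 31.1% and 37.8% of all genes tested were. The Notch targets Hey1, Hey2 and Heyl were not well above background on any array, and Dtx1, which encodes a Notch-regulated ubiquitin ligase, differed by 1.31. Onecut3, a cut-homeobox factor, read -2.34 and -2.40 with LMO2 and was not well above background elsewhere (at least 13.3-fold). Sp7, osterix of bone-forming cells, showed the same pattern (LMO2 mean -3.14, at least 7.8-fold).

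Dlx1 and Dlx2 are paired homeobox genes on chromosome 2 that are known from forebrain interneurons. Dlx1 read -1.35 and -1.29 on the LMO2 arrays, -3.86 and -3.66 on the Mock arrays, -4.73 and -4.82 on the pro-B(−) arrays and -6.12 and -7.38 on the pro-B(+) arrays. Dlx2 was well above background only with LMO2 (-4.97 and -4.95, at least 2.21-fold). Eya2, a cofactor of sine oculis homeobox proteins, had a mean of 0.98 with LMO2 (SD 0.0241) and -1.67 with Mock (SD 0.0438, n = 2 each), a 6.27-fold difference, and Scml4, a polycomb-related gene, read 0.61 and 0.60 on the LMO2 arrays against -2.12 and -2.11 on the Mock arrays (6.6-fold). Jun, a subunit of AP-1, read 2.74 and 2.64 on the LMO2 arrays, 0.58 and 0.41 on the Mock arrays, 1.94 and 1.88 on the pro-B(−) arrays and 2.23 and 2.29 on the pro-B(+) arrays. Mock was the low group for Jun, and pro-B(+) lay next below LMO2. Tbx6, a T-box factor of the early mesoderm, differed by 2.33, but its second probe differed by 0.34, so the probes disagree.

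Ion channels and carriers were 2 further groups. Trpc6, a calcium-permeable channel opened by diacylglycerol, read 0.35 and 0.32 on the LMO2 arrays, -4.45 and -4.43 on the Mock arrays, -6.39 and -6.81 on the pro-B(−) arrays and -7.67 and -7.06 on the pro-B(+) arrays. It was 27.3-fold higher with LMO2 than with Mock, and not well above background in either parental line. Slc5a9, a sodium-coupled mannose and glucose transporter, read -0.01 and -0.03 with LMO2 and -5.96 and -5.84 with Mock (59-fold in the deposited values). Neither Mock array saw it, but both Mock values lay above the array's lowest value well above background, so its bound equals the plain fold. With normexp the log2 difference was 3.18. Both parental lines lay above Mock at -4.71 and -4.80 on average. A second Slc5a9 probe had means of -1.26 with LMO2 and -7.95 with Mock. Nipal1, a magnesium transporter, was seen on the LMO2 arrays alone (-1.14 and -1.27, at least 29.8-fold). Cnga1, the rod photoreceptor channel subunit that neighbours Nipal1 on chromosome 5 with no measured gene between, was also seen with LMO2 alone (-4.52 and -4.24, at least 3.31-fold).

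Slc34a3, a renal phosphate transporter, read -1.90 and -2.09 on the LMO2 arrays against -5.20 and -5.68 on the Mock arrays (10.9-fold). Aqp8, a water and peroxide channel, read -1.12 and -1.08 on the LMO2 arrays against -4.54 and -4.39 on the Mock arrays (10.3-fold), with -3.37 and -3.20 in pro-B(−) cells. Slc17a8, a vesicular glutamate transporter, differed by 3.19 at the chosen probe, and a second probe had means of -1.36 with LMO2 and -8.41 with Mock. Receptors coupled to G proteins, odorant receptors apart, numbered 7, among them Ffar2, the short-chain fatty acid receptor (5.54-fold), Gpr34, a lysophosphatidylserine receptor (5.54-fold), and Cysltr2, a leukotriene receptor seen on neither Mock array (at least 2.13-fold). None of the 5 odorant receptors was well above background on either Mock array, and their LMO2 means were between -4.93 and -3.95. Olfr523 read -4.39 and -4.30 on the LMO2 arrays against -7.32 and -7.01 on the Mock arrays, but was well above background in both parental lines, at -5.45 and -5.29 on average.

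Secreted plasma proteins and matrix genes followed the same range of patterns. Saa3, an acute-phase apolipoprotein, was seen with LMO2 alone (-2.77 and -2.87, at least 9.74-fold). Clu, the chaperone clusterin, read -0.35 and -0.41 on the LMO2 arrays against -3.35 and -3.39 on the Mock arrays (7.93-fold), with the parental lines between. Ereg, the EGF-family ligand epiregulin, read -3.20 and -3.18 on the LMO2 arrays against -5.31 and -5.38 on the Mock arrays, with no signal well above background in either parental line. C2, a complement protease, was seen on neither Mock array and lay at least 2.88-fold above Mock.

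Chad, the cartilage matrix protein chondroadherin, read -0.0041 and 0.06 on the LMO2 arrays, -4.70 and -4.36 on the Mock arrays, -4.84 and -4.46 on the pro-B(−) arrays and -4.53 and -4.27 on the pro-B(+) arrays. The 3 groups without added Lmo2 overlapped, and LMO2 lay 23.5-fold above Mock. Matn1, matrilin of cartilage, read -2.27 and -2.28 on the LMO2 arrays against -4.70 and -4.74 on the Mock arrays and was not well above background in the parental lines. Lmo7, a LIM-domain protein of cell junctions, was not well above background in pro-B(+) cells, and read 0.02 and -0.02 on the LMO2 arrays, -2.10 and -2.24 on the Mock arrays, -3.54 and -3.42 on the pro-B(−) arrays and -7.20 and -7.17 on the pro-B(+) arrays. The order of its groups, LMO2, Mock, pro-B(−) and pro-B(+) from high to low, was that of Dntt, and Strip2, a subunit of phosphatase complexes, had it too, with 2.59 and 2.62 on the LMO2 arrays, 0.30 and 0.39 on the Mock arrays, -1.48 and -1.59 on the pro-B(−) arrays and -3.47 and -3.38 on the pro-B(+) arrays.

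Several of the named genes fit none of these groups. Fam71b, a testis gene, read -0.63 and -0.60 on the LMO2 arrays against -5.56 and -5.53 on the Mock arrays (30.4-fold), and Adprhl1, a heart relative of ADP-ribose hydrolases, 1.01 and 1.02 on the LMO2 arrays against -3.33 and -3.31 on the Mock arrays (20.1-fold). AA467197, a small mitochondrial protein gene, read 2.32 and 2.26 on the LMO2 arrays against -1.79 and -1.76 on the Mock arrays (16.8-fold), Nos1ap, an adaptor of neuronal nitric oxide synthase, -0.58 and -0.60 on the LMO2 arrays against -4.41 and -4.46 on the Mock arrays (14.4-fold), and Glod5, a glyoxalase-domain gene on the X chromosome, was seen with LMO2 alone (at least 10.3-fold). Sult2b1, which sulphates cholesterol, was 10.2-fold higher with LMO2 than with Mock, and Rtn4rl1, a Nogo receptor relative, 9.92-fold. Cyb561a3, a lysosomal iron reductase (4.03 and 3.96 on the LMO2 arrays against 1.91 and 1.94 on the Mock arrays), and Ypel3, a growth-restraining gene (3.21 and 3.25 on the LMO2 arrays against 1.17 and 1.12 on the Mock arrays), were well above background in every group. Sik1, a kinase regulated by cAMP, and Armc2, a cilia gene, each differed by 2.02. In all, 92 chosen genes were placed in a group and 62 in none, and over the 62 the LMO2 minus Mock difference ran from 2.02 to 4.93 with a median of 2.44.

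The remaining genes of the groups are given by their LMO2 minus Mock difference, or by a bound where neither Mock array saw them. Among lymphocyte genes Lax1, an adaptor that restrains antigen receptor signalling, differed by 2.76. Klra2, a receptor of the Ly49 family, was counted in the same group and lay at least 2.07-fold above Mock, with -4.63 and -5.48 on the LMO2 arrays. Fgl2, a fibrinogen-like enzyme that interferon induces, differed by 2.55. Of the transcription factors, Bhlhe41, a repressor of the circadian clock, lay at least 5.35-fold above Mock, Tshz2, a teashirt zinc finger, differed by 2.45, and Zfp229 lay at least 2.57-fold above Mock. The channel genes Trpv4 (osmosensitive), Itpr2 (calcium release), Lrrc8c (volume-regulated anions) and Gjc3 (gap junctions) followed: Trpv4 differed by 2.33, Itpr2 differed by 2.07, Lrrc8c differed by 2.06 and Gjc3 lay at least 4.39-fold above Mock. Slc14a1, a urea transporter, differed by 3.28, and Spns2, which exports sphingosine 1-phosphate, differed by 2.42. Slc22a20 lay at least 1.97-fold above Mock, but its LMO2 arrays were more than 1 apart, at -4.29 and -5.96.

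Gpr55, a lysolipid receptor, lay at least 5.96-fold above Mock, Tas1r1, a subunit of the umami taste receptor, differed by 2.76, and Mrgpra1 lay at least 2.04-fold above Mock. The plasma protein genes Serpinc1 (antithrombin), Cp (ceruloplasmin) and Itih4 are mostly known from liver. Serpinc1 differed by 3.04, Cp lay at least 5.04-fold above Mock and Itih4 lay at least 2.85-fold above Mock. Nrg4, a ligand of the EGF family, differed by 2.19, Scube3, a secreted signalling cofactor, lay at least 3.38-fold above Mock, and Kcp, a modulator of BMP signalling, differed by 2.85. Among structural genes, Snorc of cartilage lay at least 3.5-fold above Mock, Krt9, a keratin of palm and sole skin, differed by 3.02, Sprr1a of the cornified envelope differed by 2.31, Ankrd1 of strained muscle lay at least 2.72-fold above Mock, and Neb, the giant nebulin of skeletal muscle, differed by 2.25.

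Set against the parental line, not all of the 154 genes were above it. The LMO2 mean was at least 2 above the pro-B(−) mean in 114 genes, between 1 and 2 above in 30, less than 1 above in 10, of which 4 lay below it. Against pro-B(+) cells the LMO2 mean was at least 2 higher in 100 genes, with a median of 2.57 over the chosen genes and -0.09 over the 15013 genes well above background on at least 1 array. In 148 of the 154 genes LMO2 had the highest mean of the 4 groups, and in 98 it lay at least 2 above each of the others. These differences share arrays with the rule, which favours a high LMO2 mean. The 148 and 98 have no count over all genes beside them, and LMO2 and the parental lines lie on different slides.

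A chosen gene less than 1 above pro-B(−) had, by arithmetic, a Mock mean more than 1 below pro-B(−). Snx20, a sorting nexin that binds the selectin ligand PSGL-1, read 1.19 and 1.19 on the LMO2 arrays, -1.26 and -1.25 on the Mock arrays, 1.74 and 1.73 on the pro-B(−) arrays and 2.11 and 2.08 on the pro-B(+) arrays. The Mock arrays lay under all others, and LMO2 minus pro-B(−) was -0.55. Nhlrc1, the ubiquitin ligase malin, read -3.38 and -3.12 on the LMO2 arrays, -6.09 and -5.34 on the Mock arrays, -2.12 and -2.06 on the pro-B(−) arrays and -1.14 and -1.11 on the pro-B(+) arrays. LMO2 lay between Mock and the parental lines. Scin, an actin-severing protein, read -3.55 and -3.72 on the LMO2 arrays against -5.70 and -7.38 on the Mock arrays, and -3.17 and -3.34 in pro-B(−) cells. Cnga3, the cone photoreceptor channel subunit, had its low parental difference from 1 array, with -6.60 and -2.47 in pro-B(−) cells, and read -5.43 and -5.87 on the LMO2 arrays against -8.47 and -7.48 on the Mock arrays. Cyp2f2, a cytochrome P450 of airway cells, also had its low values with Mock, and read -3.97 and -3.84 on the LMO2 arrays against -7.68 and -7.01 on the Mock arrays, with -5.75 and -5.50 in pro-B(−) cells. Anp32a, a nuclear phosphatase inhibitor, read 3.47 and 3.53 on the LMO2 arrays against 1.27 and 1.38 on the Mock arrays, with 2.58 and 2.54 in pro-B(−) cells. A second Anp32a probe fell by 0.65 on the log2 scale between Mock and LMO2, so the probes disagree in direction.

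Mock minus pro-B(−) had a median of -0.12 over the 154 genes, with 29 at or under -1 and 27 at or over 1, and of -0.01 over the 15013 genes. Over the 63 chosen genes well above background on all 8 arrays the median was 0.12, with 5 at or under -1 and 14 at or over 1. Of the 91 chosen genes bright enough to test in Mock or pro-B(−) cells, limma called 40 higher with Mock and 28 lower, where 30.9% and 29.9% of all genes tested were called. The Mock and pro-B(−) arrays both enter the rule and lie on different slides, so these counts are a description and no test. Between the parental lines, of 88 chosen genes tested 45 were called higher in pro-B(+) and 15 lower, where 25.7% and 27.1% of all genes were. The rule used that contrast, and it removed genes with a parental difference of 1 or more.

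**Figure D4:**
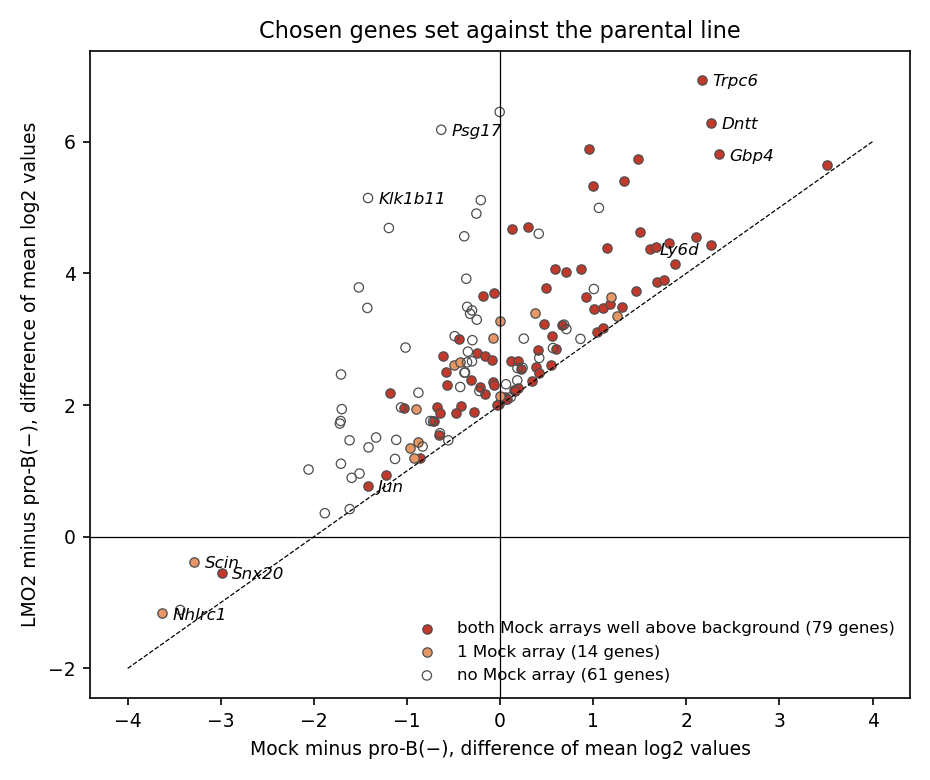
LMO2 minus pro-B(−) against Mock minus pro-B(−) (differences of mean log2 values) for the 154 chosen genes, filled red where both Mock arrays were well above background, orange for 1 and open for none. The dashed line marks a difference of 2 between LMO2 and Mock cells, on or above which all chosen genes lie by choice, and Snx20, Scin and Nhlrc1 lie under the parental level at the lower left.

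Lists of lineage genes, most of them not chosen, show what moved around the chosen genes between LMO2 and Mock cells. In the T-lineage list 24 of 42 genes tested were called higher and 9 lower, in the NK, innate lymphoid and cytotoxic list 24 of 27 and 2, and in the B-lineage list 10 of 29 and 10. The T-lineage list holds 4 chosen genes, the NK list 2 and the B-lineage list 2. Those of the T-lineage list are Gimap3, Gimap6, Gimap7 and Ly6d, none of them confined to T cells. In the myeloid list 23 of 34 genes tested were called higher and 6 lower, in the mast, basophil and eosinophil list 12 of 15 and 1, and in the dendritic list 8 of 15 and 3, and none of these 3 lists holds a chosen gene. For stem and progenitor genes the counts were 12 of 24 higher and 11 lower, for LMO2 partners 10 of 21 and 7, and for cytokines, TNF family members and receptors 26 of 41 and 5. The share called over all genes tested was 31.1% higher and 37.8% lower. The median of the LMO2 partner list was 0.07 and turned to -0.14 when the arrays were centred on their medians, and that of the B-lineage list lay between -0.21 and 0.11 over the scalings tried.

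The rule used neither position nor sequence. Of the 154 genes, 24 lie on chromosome 7 (15.6%), which holds 9.03% of all genes measured, and the pregnancy-specific glycoprotein, kallikrein and odorant receptor genes on it are families of related copies. Neighbouring chosen genes with no other measured gene between them were Gbp8, Gbp9 and Gbp4, Gimap6 and Gimap7, Cnga1 and Nipal1, Upk3bl and Rasa4, and Ypel3 and Tbx6. A promoter region was at hand for 116 of the 154 genes and for 15982 of all. The median number of CG dinucleotides in the 250 bases was 4 for the chosen genes and 11 for all genes, and 47.4% against 26% held 3 or fewer. The E-box CANNTG was found in 68.1% of the chosen and 61.9% of all regions, GATAA in 30.2% and 20%, TGTGGT (RUNX) in 21.6% and 11.8%, CGGAAG (ETS) in 6.9% and 18.3%, and TATAAA in 7.76% and 11.7%, each on both strands. These shares are descriptions, and base composition was not matched between the sets.

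Second probes bear on the choice of probe. Of the 154 genes 33 had another probe, 35 probes in all, and 22 of these were well above background on both LMO2 arrays. The LMO2 minus Mock difference at these 22 was at least 2 for 16, between 1 and 2 for 4 and under 1 for 2, the latter being Tbx6 and Anp32a.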

How the data were processed

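RNA of 8 samples was hybridised to one-colour Agilent mouse arrays. For every spot the authors deposited the intensity that Feature Extraction 11.5.1.1 had extracted and background subtracted. The authors also deposited a matrix of log2 values, made by 75th percentile normalization in GeneSpring GX 12, which equals log2 of the scanner signal minus 1 constant per array. Levels, differences and the choice of genes come from this matrix.

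Probes were named through accessions in a RefSeq table (GRCm38.p6), which gave 26581 of 39429 probes 1 of 20144 symbols. Calls come from limma 3.58.1 (R 4.3.3), fitted to all 8 arrays with 4 group means on log2 processed intensity minus the array's 75th percentile. Outlier-flagged spots did not enter the fit, which dropped 51 probes. A probe was tested if well above background on both arrays of a compared group, and p-values were adjusted over all probes tested by Benjamini-Hochberg. The fit was tested on simulated data with known changes.

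The members, lists and groups were chosen with earlier results of these data known. Genes named in the text were those with the largest differences or bounds, the lowest parental differences, the extremes of Mock minus pro-B(−), the highest LMO2 signals, those next to the thresholds and those on the lists. Others, with the fat-cell list and the families, were chosen after their values were seen. Not every gene that this rule names is reported here. Alternatives tried were median and quantile scaling, normexp background correction, the other source of values, other filters and thresholds, a replicate block, an intensity trend, fits on fewer arrays and leaving out each array. Replicate numbers recur across groups without a stated pairing.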

Additional observations from a re-analysis of the deposited data

How the results depend on the processing

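Of the 436 values of LMO2 minus Mock of the 55 named genes under alternatives, none reversed. These genes were chosen for a large difference on the same arrays, so a kept sign is no separate evidence. With normexp 24 of them stayed at 2 or more and 41 at 1 or more, and the lowest was 0.37. The number of chosen genes was 154, and 62 with normexp (38 of them among the 154), 557 with a threshold of 1 and 56 with a threshold of 3 on LMO2 minus Mock, 40 and 235 with thresholds of 0 and 2 on the parental difference, and 79 with both Mock arrays also well above background. It ran from 149 to 271 when single arrays were left out, and was 271 without LMO2 replicate 1 and 233 without LMO2 replicate 2. Median scaling kept 121 of the 154 genes and quantile normalization 119. With normexp all 153 genes of the fit stayed higher with LMO2 than with Mock, 93 of them by 1 or more. The median of Mock minus pro-B(−) turned from -0.12 to 0.10 with quantile normalization, 0.051 with normexp and 0.12 over genes well above background on all 8 arrays, so its sign is not settled. The median of LMO2 minus pro-B(+), 2.57 in the deposited values, was 2.67 with median scaling, 2.85 with quantile normalization, 1.24 with normexp and 2.40 over genes well above background everywhere, and ran from 2.47 to 2.62 without single arrays. Probes called between the parental lines numbered 11544 (4877 higher, 6667 lower) and 18584 (2943 higher, 15641 lower) with median scaling. The cause was not tested.

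With the replicate number as a block, 14686 probes were called between LMO2 and Mock (14905 without the replicate block), 11288 between the parental lines (11544) and 13294 between Mock and pro-B(−) (13670). Deviations of same-numbered arrays correlated between -0.0272 and 0.0515 over probes, so the numbers were not taken as a pairing. The planned normexp on mean spot signals was not run, and median spot signals were used instead, chosen after seeing the data. Signal over background limits the dim genes, whose folds are bounds in the deposited values alone.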
